A study of Mus musculus with 15 samples.

Results

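The miR-15, miR-16, miR-195 and miR-322 family was followed in platelet-free plasma of male wild-type C57BL/6J mice, 24 h after cecal ligation and puncture (CLP, 9 libraries) or after a sham operation (6 libraries). CLP opens the gut to the abdominal cavity and is a mouse model of polymicrobial sepsis. The 7 members were fixed by name (mmu-miR-15a-5p, mmu-miR-15b-5p, mmu-miR-16-5p, mmu-miR-195a-5p, mmu-miR-322-5p, mmu-miR-322-3p and mmu-miR-497a-5p, written below without the prefix for mouse), and each matched 1 of the 1205 entries of the microRNA (miRNA) count table. All 7 passed the filter on low counts, as did 426 entries in all. No allele or agent is named for either group, and whether the numbered samples came from separate animals is not given in the labels. The p-values therefore cover only the spread between these libraries, part of which may be technical.

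The 5p members share their seed, the bases that pair with target mRNAs. In mammals the family is known for lowering cyclins, cyclin-dependent kinases and the survival protein BCL2, which slows the cell cycle and favours apoptosis. The human MIR15A and MIR16-1 genes are lost in many chronic lymphocytic leukaemias, and in the mouse heart miR-195 rises after birth as muscle cells leave the cell cycle. miR-16-5p is abundant in blood cells and is often used as a reference in PCR assays of plasma, and mouse miR-322 is the counterpart of human miR-424.

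The mature sequences from RefSeq (GRCm38.p6) show how alike the members are, with the seed, bases 2 to 8, in capitals.
miR-15a-5p: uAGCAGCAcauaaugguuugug
miR-15b-5p: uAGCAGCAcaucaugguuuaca
miR-16-5p: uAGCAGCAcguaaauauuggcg
miR-195a-5p: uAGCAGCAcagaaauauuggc
miR-497a-5p: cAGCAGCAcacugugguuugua
miR-322-5p: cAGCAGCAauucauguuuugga
miR-322-3p: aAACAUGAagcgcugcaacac
The 6 5p members carry the seed AGCAGCA, whereas miR-322-3p, cut from the opposite arm of the miR-322 hairpin, carries AACAUGA. miR-16-5p and miR-195a-5p differed at 2 of 21 aligned bases, and miR-15a-5p and miR-15b-5p at 4 of 22, so short or mismatched reads could be assigned to the wrong member. All values of the 7 members in the deposited table were whole numbers, although 4.56% of all its entries were not.

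The hairpin of miR-322 is shown because its arms behaved differently, with both mature arms in capitals, the 5p arm first.
Mir322: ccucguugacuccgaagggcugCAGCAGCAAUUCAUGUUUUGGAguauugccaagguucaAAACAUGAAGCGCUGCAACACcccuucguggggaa
It lies at chrX:53054255-53054349 on the minus strand of GRCm38.p6 and overlaps no gene other than miRNA genes in GENCODE M21. Mir503, its neighbour, ends 200 bases away, at chrX:53053984-53054054 on the same strand. Mir15b (chr3:69009772-69009835) and Mir16-2 (chr3:69009902-69009996) lie in an intron of Smc4, a condensin subunit gene, on its strand. The mature miR-15a-5p comes from chr14:61632075-61632096, and Mir16-1 (chr14:61631880-61631972) overlaps an exon of the noncoding gene Dleu2. Mir497 (chr11:70234717-70234800), the source of miR-497a, and Mir195a (chr11:70235042-70235135) lie 241 bases apart. The sequence of mature miR-16-5p is the same from both of its genes, so its reads cannot be divided between chromosomes 3 and 14.

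Library totals ran from 6181056 to 13576482 counts in CLP and from 5274676 to 10702028 in sham. Levels are given as CPM, counts scaled to a common library size with each library's total adjusted by TMM. Reads of 21 to 22 bases come from molecules of nearly the same length, but adapter ligation favours some ends, so a level of 1 miRNA against another is approximate. The 5p members together took 0.120 to 0.274% of the counts in CLP (median 0.175%) and 0.121 to 0.319% in sham (median 0.175%). miR-16-5p made up 90.8 to 96.1% of these 5p reads in CLP and 91.1 to 97.4% in sham.

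The members did not all move one way. miR-15b-5p and miR-15a-5p rose in CLP, miR-322-3p and miR-195a-5p fell, and the changes of miR-16-5p, miR-497a-5p and miR-322-5p did not pass (edgeR quasi-likelihood test, Benjamini-Hochberg adjustment over the 426 tested miRNAs, threshold 0.05). These 4 calls among 7 members stand beside 47.2% of all tested miRNAs called, 25.4% higher and 21.8% lower, so the share of members called is near the background. The median log2 fold change of the members was 0.35, against 0.11 over all tested miRNAs. Scaling by library size alone shifted the median of all log2 fold changes by -0.23, so directions are relative to the scaling.

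**Figure D1:**
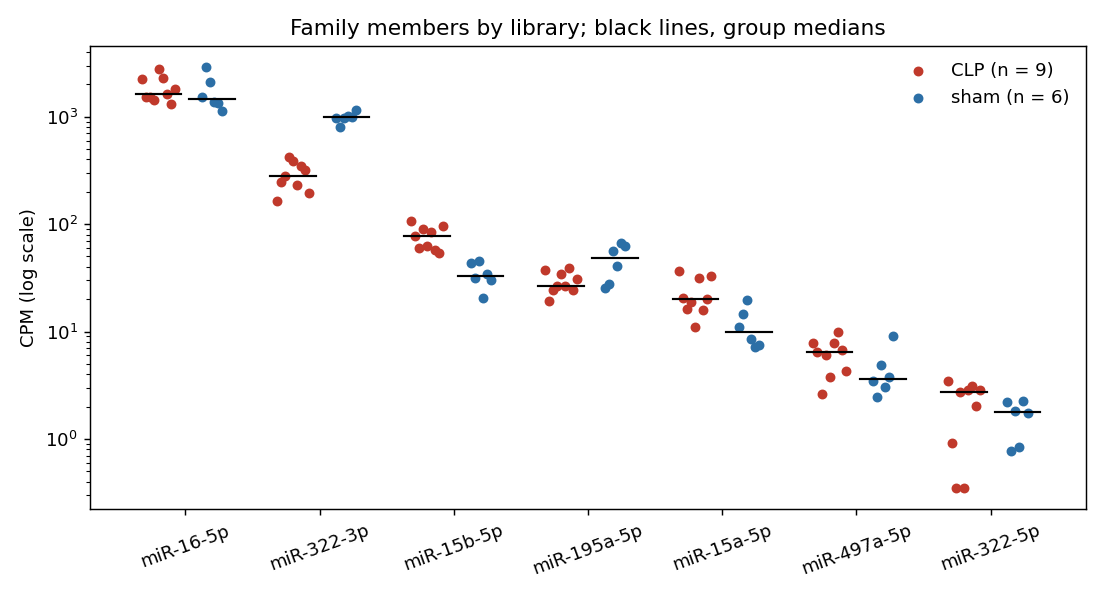
CPM of each member (log scale) in the 9 CLP libraries (red) and the 6 sham libraries (blue), 1 point per library, with black lines at the group medians. The groups do not overlap for miR-322-3p, with CLP lower, nor for miR-15b-5p, with CLP higher, while miR-16-5p spans the same range in both groups.

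miR-16-5p was the most abundant member and ranked 45 of 426 tested miRNAs by mean level. It ran from 1308 to 2780 CPM in CLP (median 1620) and from 1143 to 2908 CPM in sham (median 1454). The groups overlapped over nearly their whole range, with the highest CLP value in CLP 5 and the highest sham value in sham 2. The log2 fold change was 0.09 ± 0.23 (SE; edgeR adjusted p = 0.778), and on leaving out 1 library it lay between -0.11 and 0.26. Its standard deviation over the 15 libraries was 0.41 on the log2 scale, the 46th smallest of the 426. The miR-16 hairpins also give 3p arms, and miR-16-1-3p (-0.23 ± 0.27, edgeR adjusted p = 0.511) and miR-16-2-3p (-0.11 ± 0.28, 0.770) did not pass.

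miR-15b-5p, which shares the Smc4 intron with Mir16-2, ran from 53.4 to 108.0 CPM in CLP (median 77.3) and from 20.6 to 45.1 CPM in sham (median 32.9). All 9 CLP libraries lay above every sham library. Complete separation in this direction was found for 8.45% of the tested miRNAs. The log2 fold change was 1.17 ± 0.22 (SE; edgeR adjusted p = 0.000247), a 2.25-fold rise. The 3p arm of the same hairpin, miR-15b-3p, was at 52.8 ± 9.96 CPM in CLP (SD, n = 9) and 30.9 ± 8.73 CPM in sham (n = 6), and also rose, by 0.77 ± 0.20 (edgeR adjusted p = 0.00352). When a trend of library values with GC content was removed, miR-15b-5p was at 0.80 (edgeR adjusted p = 0.00237, highest over its alternatives 0.00997), whereas the call of miR-15b-3p was lost (0.32, 0.139).

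miR-15a-5p ran from 11 to 36.6 CPM in CLP (median 20.1) and from 7.21 to 19.7 CPM in sham (median 9.80). In CLP, 5 of the 9 libraries exceeded every sham library, and the lowest was CLP 5. The log2 fold change was 0.98 ± 0.30 (SE; edgeR adjusted p = 0.0116). This call was lost without sham 6 (0.76, edgeR adjusted p = 0.0642), with library size scaling (0.74, 0.0568), with replicates 1 to 6 alone (0.88, 0.0622), with a haemolysis index, the log2 ratio of the red cell miRNA miR-451a to miR-23a-3p, as a covariate (0.85, 0.0599) and with the GC trend removed (0.60, 0.0763). Over all its alternatives the adjusted p lay between 0.00473 and 0.149. The 3p arm of the hairpin, miR-15a-3p, was at 13.5 ± 2.60 CPM in CLP (SD, n = 9) and 17 ± 7.16 CPM in sham (n = 6), and its log2 fold change of -0.33 ± 0.24 did not pass (edgeR adjusted p = 0.263).

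miR-195a-5p, made beside miR-497a on chromosome 11, ran from 19.1 to 39.2 CPM in CLP (median 26.7) and from 25.6 to 67.0 CPM in sham (median 48.8). The ranges overlapped, with 3 CLP libraries below every sham library and 4 sham libraries above every CLP library. The log2 fold change was -0.68 ± 0.23 (SE; edgeR adjusted p = 0.0238). The call was lost without sham 5 (-0.52, edgeR adjusted p = 0.0839), with no filter (-0.66, 0.0535) and with the haemolysis index as a covariate (-0.65, 0.0699), and was kept with the GC trend removed (-0.97, 0.00195), with adjusted p up to 0.0839 over its alternatives. The 3p arm, miR-195a-3p, fell too, at -1.08 ± 0.27 (SE; edgeR adjusted p = 0.00333). It stood at 4.50 ± 1.45 CPM in CLP (SD, n = 9) and 9.48 ± 2.99 CPM in sham (n = 6), with all 9 CLP libraries below every sham library. Complete separation in this direction was found for 11.3% of the tested miRNAs.

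miR-497a-5p was scarcer, at 2.62 to 9.81 CPM in CLP (median 6.38) and 2.44 to 9.16 CPM in sham (median 3.60). The groups overlapped, with 1 CLP library above every sham library. Its log2 fold change of 0.45 ± 0.34 did not pass (edgeR adjusted p = 0.288). Its other arm, miR-497a-3p, had no entry in the miRNA counts.

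miR-322-3p was the second most abundant member and showed the largest change of the 7. It ran from 165.0 to 423.0 CPM in CLP (median 283.0) and from 796.0 to 1144 CPM in sham (median 991.0). No CLP library reached the lowest sham library, a separation found in this direction for 11.3% of the tested miRNAs. The log2 fold change was -1.77 ± 0.20 (SE; edgeR adjusted p = 1.95e-06), so the level in CLP was 3.41-fold lower. It stayed between -1.91 and -1.73 on leaving out 1 library, and between -1.99 and -1.73 over the other settings. Plasma takes up miRNAs from many tissues, so fewer releasing cells and less miRNA released per cell cannot be told apart.

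miR-322-5p, which carries the family seed, was nearly missing from the plasma reads. It was counted 4 to 36 times per CLP library (0.349 to 3.45 CPM, median 2.76) and 5 to 18 times per sham library (0.769 to 2.27 CPM, median 1.78). In CLP 3 a count of 4 gave 0.295 CPM of the unadjusted library total, with an exact 95% binomial interval of 0.0803 to 0.754, and in CLP 6 a count of 36 gave 2.89, with an interval of 2.02 to 4.00. Among the CLP libraries 5 lay above and 2 below the whole sham range. The log2 fold change was 0.35 ± 0.51 (SE; edgeR adjusted p = 0.602), and the spread among the CLP libraries exceeded the counting intervals. The 3p arm held 97.9 to 99.9% of the reads of the hairpin in CLP and 99.8 to 99.9% in sham. Such intervals cover counting error only, since PCR copies are not independent molecules.

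Placed in order of mean level, the CLP libraries had miR-16-5p at 1844 ± 493 CPM (SD, n = 9), then miR-322-3p at 288 ± 87.5, miR-15b-5p at 76.8 ± 19.3, miR-195a-5p at 29.2 ± 6.73, miR-15a-5p at 22.6 ± 8.86, miR-497a-5p at 6.13 ± 2.26 and miR-322-5p at 2.07 ± 1.22. In CLP the ranges of miR-195a-5p and miR-15a-5p overlapped, as did those of miR-497a-5p and miR-322-5p. In sham the order was miR-16-5p at 1736 ± 661 CPM (SD, n = 6), miR-322-3p at 982 ± 111, miR-195a-5p at 46.7 ± 17.9, miR-15b-5p at 34.1 ± 8.97, miR-15a-5p at 11.4 ± 4.94, miR-497a-5p at 4.45 ± 2.45 and miR-322-5p at 1.61 ± 0.659. There the ranges of neighbours overlapped for miR-16-5p with miR-322-3p, for miR-195a-5p with miR-15b-5p and for miR-15a-5p with miR-497a-5p.

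**Figure D2:**
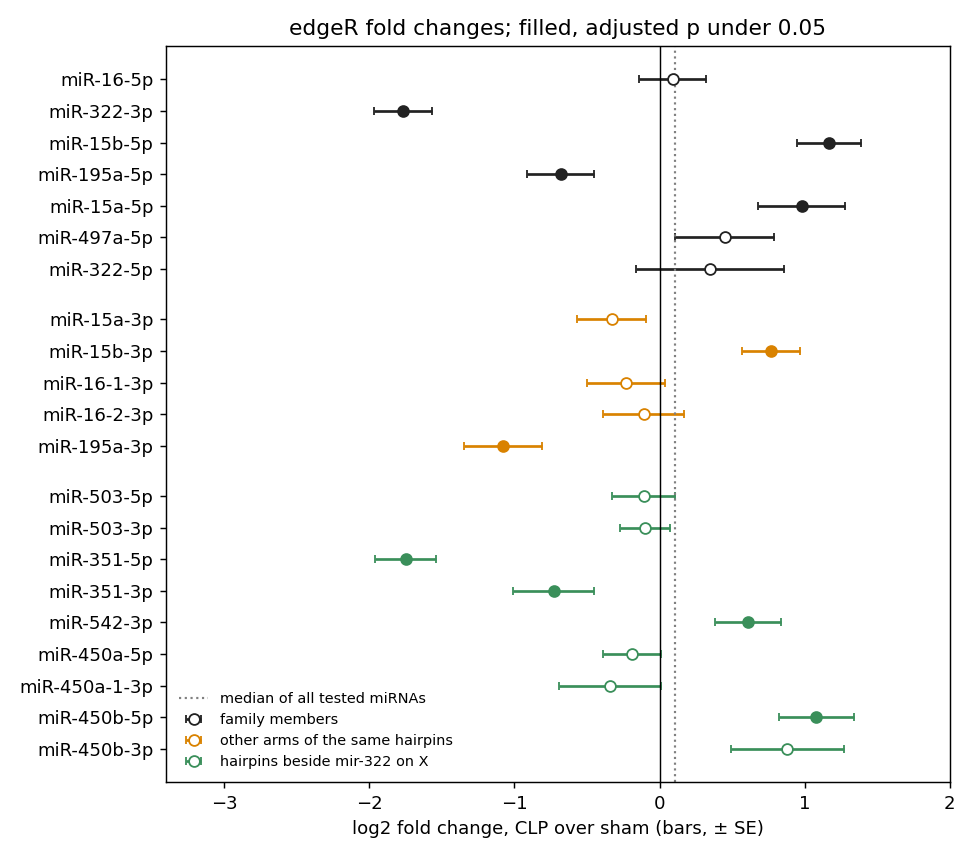
log2 fold change of CLP over sham from edgeR (points, with bars of ± SE) for the family members (black), the other arms of their hairpins (orange) and the miRNAs from hairpins beside mir-322 on the X chromosome (green). Filled points have an adjusted p under 0.05 and the dotted line is the median of all tested miRNAs, 0.11. miR-322-3p (-1.77) and miR-351-5p (-1.75) lie farthest to the left, and miR-15b-5p (1.17) and miR-450b-5p (1.08) farthest to the right.

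Ratios of 2 miRNAs within a library need no scaling between libraries and test whether members changed by different amounts. They are log2 ratios of counts with 0.5 added, compared by an exact two-sided permutation test of the difference in means. The trend with GC content was not removed from the ratios. Of 6 planned ratios 4 passed after adjustment over the 6. The log2 ratio of miR-15b-5p over miR-16-5p was -4.58 ± 0.43 in CLP (SD, n = 9) and -5.63 ± 0.55 in sham (n = 6), a difference of 1.05 (exact permutation p = 0.000999, adjusted 0.00599), and 8 of 9 CLP libraries exceeded the highest sham library. That of miR-15a-5p over miR-16-5p was -6.40 ± 0.65 in CLP and -7.26 ± 0.32 in sham, a difference of 0.86 (exact permutation p = 0.0136, adjusted 0.0219). CLP 5, at -7.97, lay below every sham library, while the other 8 CLP libraries lay above them all. Both members made beside the miR-16 hairpins thus rose relative to miR-16-5p itself.

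The neighbours on chromosome 11 also changed by different amounts. The log2 ratio of miR-497a-5p over miR-195a-5p was -2.31 ± 0.61 in CLP (SD, n = 9) and -3.41 ± 0.52 in sham (n = 6), a difference of 1.10 (exact permutation p = 0.00539, adjusted 0.0162). miR-497a-5p was counted only 27 to 99 times per CLP library and 18 to 95 times per sham library. GC content was 50.0% for miR-497a-5p and 42.9% for miR-195a-5p, and the part of the GC trend in this ratio was not tested. For miR-195a-5p over miR-16-5p the difference of -0.73 did not pass (exact permutation p = 0.0533, adjusted 0.0640). It did pass without sham 2 (-1.03, adjusted 0.0120) or without sham 1 (-0.86, adjusted 0.0438), and sham 2 held the highest miR-16-5p. The difference for miR-322-5p over miR-16-5p was -0.04 (exact permutation p = 0.947, adjusted 0.947).

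**Figure D3:**
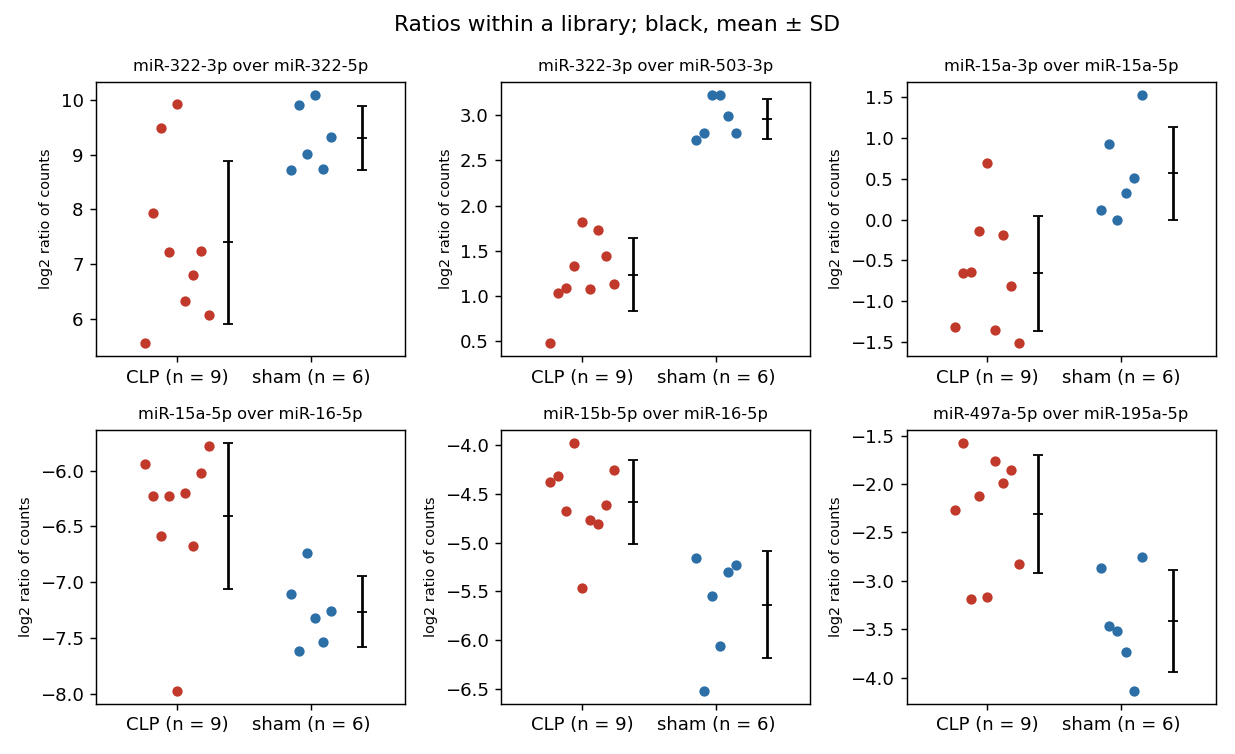
log2 ratio of counts of 2 miRNAs in each library, for the 9 CLP libraries (red) and the 6 sham libraries (blue), with the mean ± SD in black, in 6 panels with their own axes. The ratios of miR-322-3p over miR-503-3p and of miR-15a-3p over miR-15a-5p were added after the values were seen. The former separates the groups without overlap, at 0.47 to 1.82 in CLP and 2.72 to 3.22 in sham. In the panel of miR-15a-5p over miR-16-5p, CLP 5 stands apart at -7.97.

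The arms of miR-322 and of miR-15a shifted relative to each other. The log2 ratio of miR-322-3p over miR-322-5p was 7.39 ± 1.49 in CLP (SD, n = 9) and 9.30 ± 0.59 in sham (n = 6), a difference of -1.91 (exact permutation p = 0.0146, adjusted 0.0219), with 7 of 9 CLP libraries below every sham library. The ratio rests on the few reads of miR-322-5p. Arm ratios of the other hairpins were added after their values were seen, and are adjusted over all 10 ratios. That of miR-15a-3p over miR-15a-5p was -0.66 ± 0.70 in CLP and 0.56 ± 0.57 in sham, a difference of -1.23 (exact permutation p = 0.0048, adjusted 0.0135). These arms differ in GC content, 59.1% for miR-15a-3p and 40.9% for miR-15a-5p, and the part of the GC trend in this ratio was not tested. The differences for miR-15b-3p over miR-15b-5p (-0.38, exact permutation p = 0.0507, adjusted 0.0667) and for miR-195a-3p over miR-195a-5p (-0.47, exact permutation p = 0.111, adjusted 0.124) did not pass. Without CLP 5 or without sham 1 the miR-15b ratio did pass (-0.43, adjusted 0.0357, and -0.47, adjusted 0.0278). A lower change of the 3p than of the 5p arm was no rarity: it was found in 48 of the 98 hairpins with both arms tested (49.0%), with a median difference of 0.00. The difference of fold changes for miR-322 was -2.12, and 9 of the 98 hairpins had a lower one.

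The other arms of the family hairpins and the X chromosome cluster were looked at as lists. Of 5 tested other arms 1 rose (miR-15b-3p) and 1 fell (miR-195a-3p), and their median log2 fold change was -0.23. Of 9 tested miRNAs from hairpins beside mir-322 on the X chromosome, 2 rose and 2 fell, with a median of -0.11, against 0.11 over all tested miRNAs and 47.2% of them called.

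Within this cluster miR-351-5p, a miR-125 relative by seed, behaved like miR-322-3p. It ran from 93.5 to 247.0 CPM in CLP (median 196.0) and from 463.0 to 805.0 CPM in sham (median 620.0), and its log2 fold change was -1.75 ± 0.21 (SE; edgeR adjusted p = 2.75e-06). The groups did not overlap, as for 11.3% of the tested miRNAs in this direction. The other arm, miR-351-3p, was at -0.73 ± 0.28 (edgeR adjusted p = 0.0411), a call lost without CLP 9, sham 5 or sham 6 (adjusted p up to 0.0672), with the haemolysis index as a covariate (-0.59, 0.174), with the replicate block (-0.87, 0.0504) and with the GC trend taken out (-0.27, 0.305, highest over its alternatives 0.606).

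Neither arm of miR-503, whose hairpin is the nearest to mir-322 among those placed here, passed the test. miR-503-3p ran from 89.0 to 168.0 CPM in CLP (median 117.0) and from 105.0 to 164.0 CPM in sham (median 120.0), with a log2 fold change of -0.10 ± 0.17 (SE; edgeR adjusted p = 0.650). miR-503-5p was at -0.11 ± 0.22 (edgeR adjusted p = 0.694). The log2 ratio of miR-322-3p over miR-503-3p, added after the values were seen, was 1.24 ± 0.40 in CLP (SD, n = 9) and 2.96 ± 0.22 in sham (n = 6), a difference of -1.73 (exact permutation p = 0.0002, the smallest this design can give, adjusted 0.002). Again no CLP library reached the sham range.

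The remaining cluster members differed again. miR-450b-5p rose by 1.08 ± 0.26 (SE; edgeR adjusted p = 0.00214), with 25.8 ± 8.90 CPM in CLP (SD, n = 9) and 12.2 ± 3.31 CPM in sham (n = 6), but the call was lost once the GC trend was taken out (0.46, edgeR adjusted p = 0.105, highest over its alternatives 0.121). miR-542-3p rose by 0.61 ± 0.23 (edgeR adjusted p = 0.0330), a call lost on leaving out any 1 of 10 libraries (CLP 1, 2, 4, 6, 7 or 8 or sham 1, 2, 3 or 5). It was kept in 4 of 13 other settings, and the log2 fold change was -0.03 once the GC trend was taken out (edgeR adjusted p = 0.923). miR-450a-5p was at -0.19 ± 0.20 (edgeR adjusted p = 0.450) and passed as lower with the GC trend removed (-0.75, 0.00237). GC content was 47.6% for miR-322-3p and between 40.9 and 50.0% for the 5p members.

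The red cell miRNA miR-451a was lower in CLP, at 1368 to 6615 CPM (median 2323), than in sham, at 3482 to 11921 CPM (median 6454). Its highest CLP value was in CLP 5 and its highest sham value in sham 2, the libraries in which miR-16-5p was also highest. Within the 9 CLP libraries log2 CPM of miR-16-5p and miR-451a had a Pearson r of 0.87 (exact permutation p = 0.00165, adjusted over 14 relations 0.0231) and a Spearman rho of 0.85 (exact permutation p = 0.00607, adjusted 0.0850). Without the 2 libraries farthest from the median of miR-451a, r was 0.79. The adjusted p of r was 0.0550 with library size scaling and 0.0842 with the haemolysis index in its place. Within the 6 sham libraries r was 0.76 and rho 0.71 (exact permutation p = 0.0819 and 0.136, adjusted 0.350 and 0.612), and r was 0.62 without the 2 farthest.

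Within CLP miR-15a-5p and miR-15b-5p had r of -0.22 (exact permutation p = 0.579) and -0.10 (0.806) with miR-451a, and 0.46 and 0.52 without the 2 farthest libraries, so the signs rest on those libraries. Within sham r was 0.71 (exact permutation p = 0.122) and 0.66 (0.143), and 0.69 and 0.87 without the 2 farthest. Whether these relations differ from that of miR-16-5p was not tested. The other 8 relations did not pass either, with adjusted p of r from 0.350 to 0.990. Of 6 tested red cell entries none rose and 1 fell (miR-451a), beside 25.4% of all tested miRNAs called higher and 21.8% called lower. The summed level of these entries was 81483 to 377758 CPM in CLP and 157344 to 454612 CPM in sham. With the red cell miRNAs taken out of the table the same number of members was called, 2 higher and 2 lower. With the haemolysis index as a covariate 2 members were called, and the log2 fold changes were 1.14 for miR-15b-5p (edgeR adjusted p = 0.00187) and -1.73 for miR-322-3p (2.77e-05). The index ran from -2.53 to 0.72 in CLP (median -1.69) and from -1.28 to 0.24 in sham (median -0.23). Since it differs between the groups, calls lost with this covariate cannot show whether haemolysis had a part, which was not tested.

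**Figure D4:**
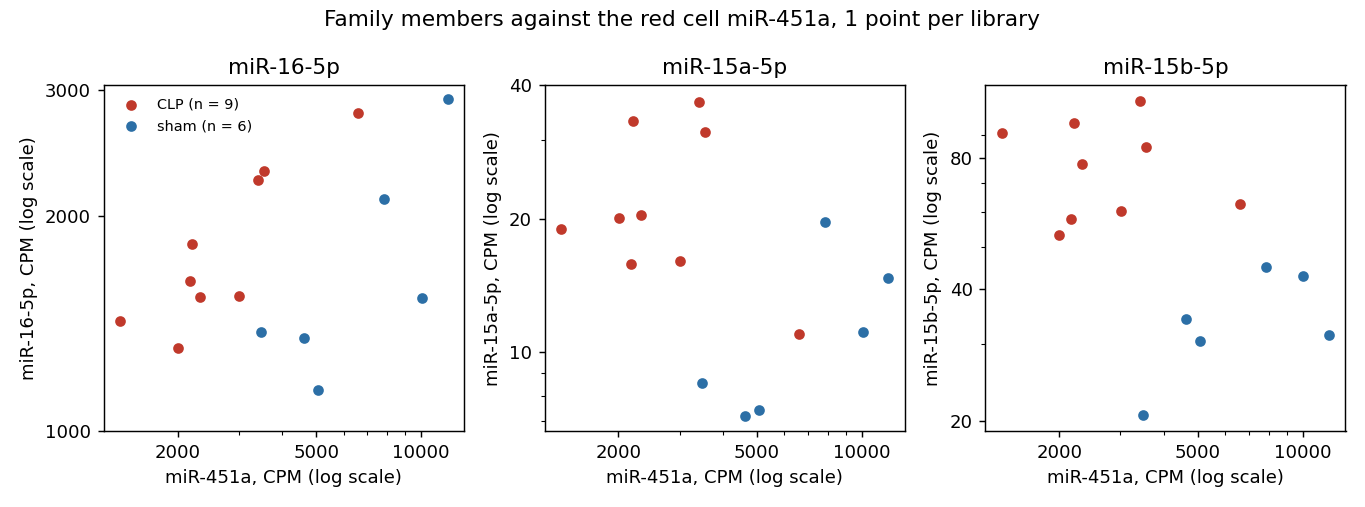
CPM of miR-16-5p, miR-15a-5p and miR-15b-5p against CPM of miR-451a, 1 point per library (log scales), CLP in red (n = 9) and sham in blue (n = 6). miR-16-5p runs upward with miR-451a among the CLP points (r = 0.87), and miR-15a-5p and miR-15b-5p have r of -0.22 and -0.10 there, which become 0.46 and 0.52 without the 2 libraries farthest from the median of miR-451a.

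Marker lists of other sources were measured beside the family, and their part in the results above was not tested. Their counts stand beside 25.4% of all tested miRNAs called higher and 21.8% called lower. Of 4 platelet miRNAs 1 rose and 2 fell, and their sum was 24152 to 33662 CPM in CLP and 44004 to 60565 CPM in sham, without overlap. Most of the sham sum was miR-191-5p, at 1648 to 9953 CPM in CLP and 31475 to 41940 CPM in sham, and the other 3 summed to 14764 to 27546 CPM in CLP and 11189 to 18624 CPM in sham. Of 5 white blood cell miRNAs 1 rose and 1 fell, summing to 1921 to 4821 CPM in CLP and 1768 to 2661 CPM in sham. Of 5 striated muscle miRNAs 4 rose and none fell (4985 to 40598 CPM in CLP, 409 to 6692 CPM in sham). Neither of 2 hepatocyte miRNAs passed (1873 to 79221 CPM in CLP, 2959 to 14622 CPM in sham), and 1 of 2 smooth muscle miRNAs rose (32253 to 85103 CPM in CLP, 14534 to 127941 CPM in sham).

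The non-members with levels most like each member over the 15 libraries were ranked by Pearson r of log2 CPM, as a description in which the points share depth and the group difference. For miR-322-3p they were miR-191-5p (r = 0.98, and 0.88 for deviations from the group means) and miR-351-5p (0.98 and 0.83). For miR-16-5p they were miR-144-3p, a red cell miRNA (0.93 and 0.95), and miR-106b-3p (0.89 and 0.88). For miR-15a-5p they were miR-103-3p (0.93 and 0.89) and miR-20a-5p (0.91 and 0.85), and for miR-15b-5p miR-148b-3p (0.93 and 0.78) and let-7f-5p (0.93 and 0.71). For miR-195a-5p they were miR-126a-5p (0.78 and 0.67) and miR-199a/b-3p (0.77 and 0.65). For the scarce miR-497a-5p and miR-322-5p the highest r with a non-member was 0.74 and 0.61.

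Among the members themselves miR-15a-5p and miR-15b-5p, from different chromosomes, had the highest r over the 15 libraries (0.83, and 0.66 for deviations from the group means). The scarce miR-322-5p and miR-497a-5p had r of 0.63, and 0.67 for deviations from the group means, the highest on that measure. By comparison r was 0.41 and 0.42 between miR-15a-5p and miR-16-5p, and 0.28 and 0.30 between miR-15b-5p and miR-16-5p. The largest negative r was that of miR-322-3p with miR-15b-5p (-0.88, and -0.46 for deviations from the group means). With miR-15a-5p miR-322-3p had r of -0.82 and -0.73, the latter larger in size than any positive r on that measure. The arms of miR-322 had r of -0.13 and -0.23.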

How the data were processed

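Per the labels' protocols, plasma was cleared of cells and platelets by centrifugation, RNA was taken up in Trizol LS, and small RNA libraries were made by adapter ligation, amplified and cut from a gel. The deposited table holds expected counts of reads per mature miRNA, not scaled by the authors, and its name gives the exceRpt pipeline. Per the submitters' processing notes, reads were placed on mm10. Aligner, mismatches and miRNA release are not given in the sources used here. Of all entries 4.56% were not whole, and expected counts were rounded before testing.

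CLP was compared with sham in edgeR 4.0.16 (R 4.3.3): filterByExpr, TMM, robust quasi-likelihood F test, no covariate, two-sided. SE is the size of the log2 fold change over the square root of F. DESeq2 1.42.0, limma 3.58.1 voom and other scalings, filters, covariates and left-out libraries were alternatives. For the GC trend, a lowess curve on GC content of the mature sequence was removed per library (sequences for 87.6% of tested miRNAs). Fits were tested on simulated data. No 2 libraries of a group were copies. Named were all members and, for each member, the 2 most similar non-members. From the preset lists of other arms, the X chromosome cluster and seed relatives, those that passed or had a mean of at least 10 CPM were named. miR-16-2-3p, with a mean of 8.42 CPM, falls outside this rule and is named beside miR-16-1-3p. The marker lists were given by counts and sums, with miR-451a also on its own, and miR-191-5p was singled out of the platelet list after its values were seen. Members and lists were chosen with earlier results of these data known.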

Additional observations from a re-analysis of the deposited data

Results flagged for a closer look

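The log2 ratio of miR-15a-5p over miR-16-5p in CLP 5 was -7.97, the lowest of the 9 CLP libraries, and stood apart because the nearest other CLP library was at -6.67, a gap of 0.59 of the range of the group. In CLP 5 miR-16-5p and miR-451a were the highest of the CLP libraries and miR-15a-5p the lowest. Without CLP 5 the difference between CLP and sham was 1.05. Over the 34 groups of values examined in this way, chance flags about 5% of groups.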

How the results depend on the processing

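The calls of miR-322-3p and miR-15b-5p kept their direction and passed under all 13 other settings and on leaving out each of the 15 libraries. The count of called miRNAs, 201, was 307 of 1182 with no filter, and 184 to 213 on leaving out 1 library. Of the members 2 were called in place of 4 with the haemolysis index as a covariate, and 2 in a fit of replicates 1 to 6 with a replicate block, where miR-15a-5p (0.89, edgeR adjusted p = 0.0847) and miR-195a-5p (-0.74, 0.0620) were lost. The labels do not say whether the replicate numbers pair the libraries. Deviations of same-numbered libraries from their group means correlated at -0.131 to -0.011, and no CLP library matched its own number best. This description has no test and cannot show that nothing was shared between them. With this block the ratios were -1.56 (miR-322-3p over miR-322-5p), 0.74 (miR-15a-5p over miR-16-5p), 1.04 (miR-15b-5p over miR-16-5p) and 1.06 (miR-497a-5p over miR-195a-5p), each with an adjusted p of 0.150 in an exact sign-flip test of 6 pairs that cannot go below 0.0312 before adjustment. The ratios added after the values were seen that had passed lost their call as well (-1.13 for miR-15a-3p over miR-15a-5p and -1.82 for miR-322-3p over miR-503-3p, adjusted p = 0.156 each). In every pair CLP lay below sham for miR-322-3p over miR-503-3p and above sham for miR-497a-5p over miR-195a-5p. These ratios were thus already at the lowest p of the sign-flip test, and their lost calls do not show a weaker difference.

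Some values changed sign, and the cause was not tested. miR-16-5p was at -0.14 with library size scaling, -0.07 with a stricter filter, -0.16 with the GC trend removed, -0.09 without CLP 1 and CLP 5, -0.02 without red cell miRNAs and -0.11 to 0.26 without 1 library. miR-322-5p was at -0.23 with the block, -0.05 with the GC trend removed and -0.53 with both. With both, miR-15a-3p was at 0.14 and miR-503-5p at 0.04. With the haemolysis index miR-16-1-3p and miR-16-2-3p were at 0.16 and miR-503-5p at 0.03, and with the GC trend removed miR-503-5p was at 0.07 and miR-542-3p at -0.03. The ratio of miR-322-5p over miR-16-5p was 0.23 without CLP 1 and CLP 5 and -0.38 to 0.30 without 1 library. The ratio of miR-195a-5p over miR-16-5p kept its sign, at -1.03 to -0.52 without 1 library. Within sham the r of miR-322-5p with miR-451a was 0.04 with library size scaling and 0.19 with the haemolysis index, with which that of miR-15a-5p was -0.19, that of miR-497a-5p 0.02 and that of miR-322-3p within CLP 0.17. Depth limits miR-322-5p most, at a median of 18 counts in CLP and 14 in sham.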

Other observations

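miR-103-3p and miR-107-3p, whose first bases repeat the family seed shifted by a base, both rose. miR-103-3p was at 113.0 ± 46.0 CPM in CLP (SD, n = 9) and 34.4 ± 20.7 CPM in sham (n = 6), a log2 fold change of 1.72 ± 0.37 (SE; edgeR adjusted p = 0.000824). miR-107-3p was at 18.1 ± 5.43 CPM in CLP and 7.19 ± 4.12 CPM in sham, a log2 fold change of 1.33 ± 0.34 (edgeR adjusted p = 0.00312), with all 9 CLP libraries above every sham library. Complete separation upward was found for 8.45% of the tested miRNAs. miR-503-5p, whose seed AGCAGCG differs from that of the family in its last base, was at 20.4 ± 5.24 CPM in CLP and 22.1 ± 5.58 CPM in sham. The 4 other mouse miRNAs with the seed of miR-16-5p in the RefSeq table (miR-195b, miR-6342, miR-6353 and miR-6419) had no entry in the miRNA counts.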
